A study of Homo sapiens with 8 samples.

Results

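The extended major histocompatibility complex (MHC) is a stretch of the short arm of chromosome 6, and the peaks described here are the RBM45 CLIP peaks of either strand whose midpoint lies between 28.478 and 33.448 Mb of chromosome 6 in the hg19 build. The replicate 1 list placed 541 of its 210878 entries there (0.257%), the replicate 2 list 214 of 65587 (0.326%), and the list of peaks shared by both replicates 52 of 13758 pairs (0.378%). An entry is 1 peak on 1 strand. The peaks come from wild-type (WT) HEK293T cells, a widely used cell line derived from human embryonic kidney, transduced with a lentivirus for FLAG-HA-tagged human RBM45 and irradiated with ultraviolet light (254 nm, 300 mJ/cm2) to cross-link protein to RNA. An antibody against the HA tag pulled the tagged protein down with its bound RNA fragments (CLIP). The study has 8 samples, an input and a CLIP library for each of 2 replicates in WT and in Mettl3 KO cells, and all of them carry the tagged RBM45 and were cross-linked in the same way. The knockout lacks the enzyme that writes most N6-methyladenosine (m6A) on messenger RNA. Only the 2 WT CLIP lists and the list of shared pairs were used; input, knockout and read counts per library were not analysed here. The depth behind each list is therefore unknown. Nothing in the labels tells if the replicates are separate cultures, and with 1 list per library no difference below has a replicate test or a p-value.

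RBM45 is an RNA-binding protein with several RNA recognition motifs that is found mainly in the nucleus, where it can meet unspliced transcripts. The MHC is one of the most gene-dense and most polymorphic parts of the human genome, and it is divided by gene content. Class I holds genes whose products present peptides from inside the cell to cytotoxic T cells, among many others without immune roles. Class III holds no HLA genes but a packed series of others, among them complement components, TNF and its relatives, the RNA helicase gene DDX39B, the histone methyltransferase gene EHMT2 and heat shock protein genes. Class II holds HLA-DR, HLA-DQ and HLA-DP, which professional antigen-presenting cells use to show peptides to helper T cells and which most other cells keep silent. It also holds the peptide transporter genes TAP1 and TAP2 and the chromatin reader gene BRD2, and the extended end beyond it carries housekeeping genes such as RPS18, which encodes a ribosomal protein. In the RefSeq gene order of GRCh38, 59 protein-coding genes follow MICB up to NOTCH4, the usual extent of class III. That order is background only. The peaks are in hg19, for which no annotation or genome was used here, so no peak is assigned to a gene, exon, intron or sequence and all are named by position.

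RBM45 peaks were found in every class of the region, and class III was the densest in both replicates. Class I, up to 31.48 Mb on the chromosome and 3.002 Mb long, held 214 replicate 1 and 89 replicate 2 entries, or 71.3 and 29.6 per Mb. Class III, from there to 32.2 Mb, held 205 and 87 entries in only 0.72 Mb, or 284.7 and 120.8 per Mb. Class II with the extended end, 1.25 Mb long, held 122 and 38 entries, or 97.7 and 30.4 per Mb. The density of class III was thus 3.99 times that of class I in replicate 1 and 4.08 times in replicate 2, and 2.91 and 3.97 times that of class II with the extended end. Class III makes up 14.5% of the length of the region and carried 37.9% of its replicate 1 entries, 40.7% of its replicate 2 entries and 55.8% of its shared pairs. Per Mb there were 3.66 shared pairs in class I, 40.3 in class III and 9.61 in class II with the extended end. The 2 lists differ in length, so densities are set side by side between classes within a list, not between lists. Gene density, transcript level and RNA abundance in the input were not measured here, and their part in these densities was not tested.

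**Figure D1:**
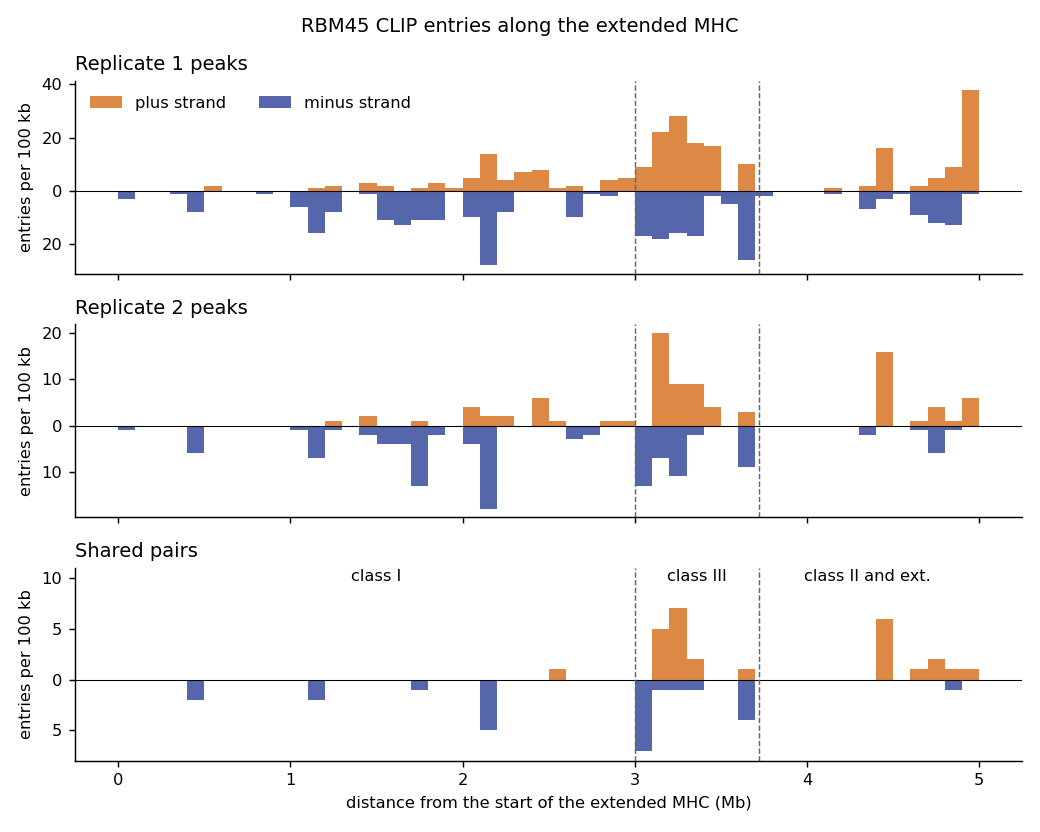
Number of replicate 1 entries, replicate 2 entries and shared pairs (3 panels) in 100-kb bins counted from the start of the extended MHC, with plus-strand entries upward and minus-strand entries downward; dashed lines mark the borders of class III. Both lists are densest between the dashed lines, and shared pairs are missing over most of the class I side and the first part of class II.

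The members were also uneven within the classes. In bins of 500 kb, the replicate 1 list ran from 3 entries at chr6:29000001-29500000 to 164 at chr6:31500001-32000000, and the replicate 2 list from 0 to 75 in the same bins. The second densest bin by replicate 2, chr6:30500001-31000000 in class I, held 84 replicate 1 entries, 36 replicate 2 entries and 5 shared pairs. By contrast, the last bin, which starts at 33000001, held 90 replicate 1 but only 20 replicate 2 entries, with 6 shared pairs. Long stretches held no peak on either strand. In replicate 1 the longest of these was 333.6 kb at chr6:32272395-32605955, in class II, and in replicate 2 it was 688.8 kb at chr6:28887487-29576254, in class I, followed by 626.3 kb at chr6:32157355-32783637. Shared pairs were missing over 804.5 kb, chr6:32137043-32941507, from the end of class III through most of class II. A stretch without peaks says nothing of whether RNA was present there to bind.

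Class I stood apart from the other classes in strand use. Over the whole lists, 52.2% of replicate 1 and 52.1% of replicate 2 entries lay on the plus strand. In class I the minus strand prevailed, with 65 of 214 replicate 1 entries on the plus strand (30.4%, 95% exact Clopper-Pearson interval 24.3 to 37.0) and 21 of 89 in replicate 2 (23.6%, 15.2 to 33.8). In class III the strands were nearly even, at 50.7% plus in replicate 1 and 51.7% in replicate 2. Without the minus-strand window chr6:31500001-31600000 they were 55.3% and 60.8% plus. Without the plus-strand window chr6:31700001-31800000 they were 42.9% and 45.5%. In class II with the extended end 73 of 122 entries were on the plus strand in replicate 1 (59.8%, 50.6 to 68.6) and 28 of 38 in replicate 2 (73.7%, 56.9 to 86.6), and these intervals overlap those of class III (43.7 to 57.8 and 40.8 to 62.6). These shares depended on single stretches. Without the plus-strand window chr6:32900001-33000000, which holds 16 entries of each list, the class was 53.8% plus in replicate 1 and 54.5% in replicate 2. Without the plus-strand window that starts at 33400001, with 30 replicate 1 and 6 replicate 2 entries, it was 46.7% and 68.8%. The class I share stayed between 28.0% and 33.7% in both lists without its window with the most pairs or its window with the most entries. Among shared pairs, 1 of 11 lay on the plus strand in class I, 15 of 29 in class III and 11 of 12 in class II with the extended end, beside 52.6% of all pairs. These intervals cover counting error only and treat entries as independent. Many are not, because 66.5% of replicate 1 and 63.6% of replicate 2 members had another member within 1 kb on the same strand, against 54.0% and 42.7% of the whole lists and 42.8% and 32.9% of chromosome 6 outside the region.

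Where overlap means that 2 peaks share a base on 1 strand, a larger share of the region's peaks than of the whole lists overlapped between the replicates. Of the 214 replicate 2 members, 86 overlapped a replicate 1 peak, which is 40.2% (33.6 to 47.1), while the share over the whole replicate 2 list was 28.8%. On chromosome 6 outside the region it was 23.9% (22.2 to 25.6). Of the 541 replicate 1 members, 81 overlapped replicate 2, which is 14.97% (12.1 to 18.3), beside 8.88% of the whole list and 6.69% of chromosome 6 outside. The difference was smaller when the overlap had to cover 50% of the replicate 1 peak, the rule of the deposited pairs. The replicate 2 share was then 23.8% (18.3 to 30.1) beside 20.9% of the whole list, whose value lies within the interval, and 18.3% of chromosome 6 outside. The replicate 1 share was 9.61% (7.26 to 12.4) beside 6.52% and 5.13%. Where 50% of both peaks had to be covered, 21.96% of replicate 2 members overlapped beside 19.6% of the list, and 8.69% of replicate 1 members beside 6.09%. No p-value is given for these differences, because neighbouring peaks of 1 library are not independent. By class and the 1-base rule, 27 of 89 replicate 2 members overlapped in class I (30.3%, 21.0 to 41.0), 41 of 87 in class III (47.1%, 36.3 to 58.1) and 18 of 38 in class II with the extended end (47.4%, 31.0 to 64.2). By this rule the class I share was close to that of the whole list, and the 3 class intervals overlap each other. In replicate 1 the shares were 12.1%, 18.0% and 14.8%. By the rule of 50% of the replicate 1 peak, class I and class III parted further. The replicate 2 share was then 12.4% (6.33 to 21.0) in class I and 32.2% (22.6 to 43.1) in class III, and the replicate 1 share 5.14% (2.59 to 9.01) and 14.1% (9.68 to 19.7). The intervals of these 2 classes did not overlap in either list, but they treat neighbouring entries as independent. Without the 100-kb window of 1 strand with the most shared pairs, class III kept 22 of its 29 pairs and class I 8 of its 11. Shares by this 50% rule were not counted again without those windows, so the gap may depend on single stretches. The replicate 2 share of class I lay below the 20.9% of the whole list, but its interval held that value. In class II with the extended end the shares were 31.6% (17.5 to 48.7) in replicate 2 and 9.84% (5.19 to 16.6) in replicate 1. Those intervals overlapped the intervals of both other classes.

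Single compact stretches weighed on the class shares. Each class was counted again by the 1-base rule without its 100-kb window of 1 strand with the most shared pairs, a choice that uses the overlap itself and so can be expected to lower the share. The replicate 2 share was then 39.2% (28.0 to 51.2) in class III and 31.8% (13.9 to 54.9, 7 of 22 entries) in class II with the extended end, and in class I it was 27.4% (17.6 to 39.1). In replicate 1 the share in class II with the extended end was 14.8% with this window and 6.60% (7 of 106 entries) without it. In class III, where another window has as many pairs, it was 18.0% with and 14.4% without. Leaving out instead the window of each class with the most entries, which does not use the overlap, gave replicate 2 shares of 33.3% in class I, 42.9% in class III and 16 of 32 entries in class II with the extended end, and replicate 1 shares of 12.4%, 16.4% and 17.4%.

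**Figure D2:**
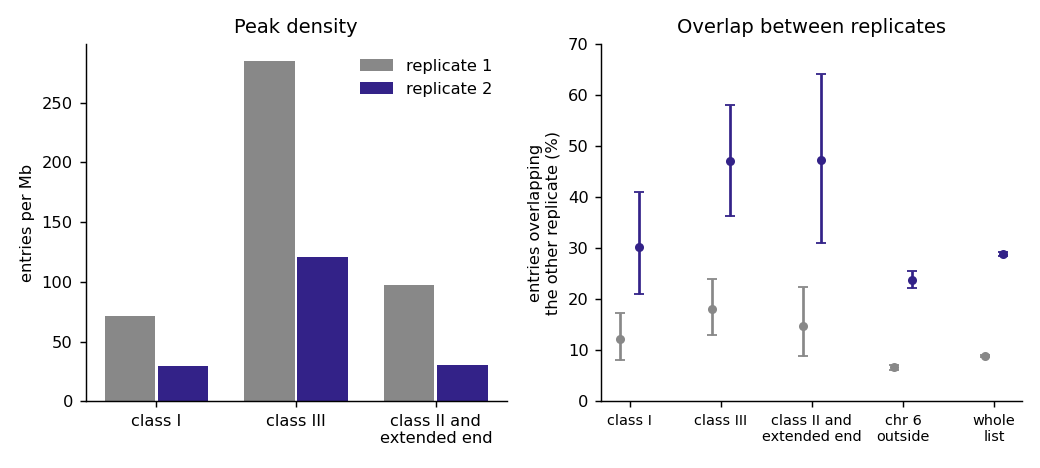
Left, entries per Mb in each class of the region for both replicate lists; right, percent of entries overlapping the other replicate in each class, on chromosome 6 outside the region and in the whole list, with 95% exact binomial intervals as bars. Class III is densest in both lists, and by the 1-base rule the class I share of replicate 2, 30.3%, lies nearest the whole-list value of 28.8%.

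Members were somewhat stronger and wider than the lists they come from. The median −log10 p of the caller, unadjusted and as the authors give it for each peak, was 4.56 in replicate 1 members and 3.70 in the whole list, and 5.14 against 4.24 in replicate 2. In class III the medians were 4.85 and 6.56, and in class I 4.49 and 4.70. In class II with the extended end they were 3.72 and 5.08, so in replicate 1 that class was close to the whole list. At or above the 90th percentile of the whole list lay 94 replicate 1 members (17.4%, beside 10% of the list by construction) and 46 replicate 2 members (21.5%, beside 10%), of which class III held 48 and 27. The authors' fold enrichment over the caller's background did not show the same difference in both lists. Its median was 3.34 in replicate 1 members and 3.12 in the list, but 3.71 against 3.81 in replicate 2. Above 5-fold lay 74 replicate 1 members (13.7%, beside 9.16% of the list) and 38 replicate 2 members (17.8%, beside 18%). Members had a median width of 36 bases (replicate 1) and 33 (replicate 2), against 30 and 31 in the lists, and wider peaks can meet a 1-base rule more easily.

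Strength was therefore set beside overlap. The whole lists were divided by −log10 p into 3 strength classes of about equal size. The strongest took 48.3% of class III and 41.1% of class I entries in replicate 1, and 57.5% and 37.1% in replicate 2. The shares by MHC class given above are not split by strength. In the strongest class of replicate 2, 52 of 101 members overlapped (51.5%, 41.3 to 61.6), against 43.2% of all such peaks and 37.2% of those on chromosome 6 outside. In the weakest class it was 14 of 50 (28.0%, 16.2 to 42.5) against 17.7%, and in the middle class 20 of 63 (31.7%, 20.6 to 44.7) against 25.6%. In replicate 1 the strongest class gave 62 of 236 (26.3%, 20.8 to 32.4) against 17.4%, while the middle class gave 5.70% (2.64 to 10.54) against 5.48%. The weakest class of replicate 1 gave 10 of 147 (6.80%, 3.31 to 12.2) against 3.79%. The members' share was above that of the list in all 6 of these sets, but the interval left out the list's value in only 1 of them, the strongest class of replicate 1. Against chromosome 6 outside the region, the members' share was also above in all 6, and the interval left out the value in 4. These were the weakest and strongest classes of both lists, where peaks outside gave 2.80% and 13.2% in replicate 1 and 14.5% and 37.2% in replicate 2.

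**Figure D3:**
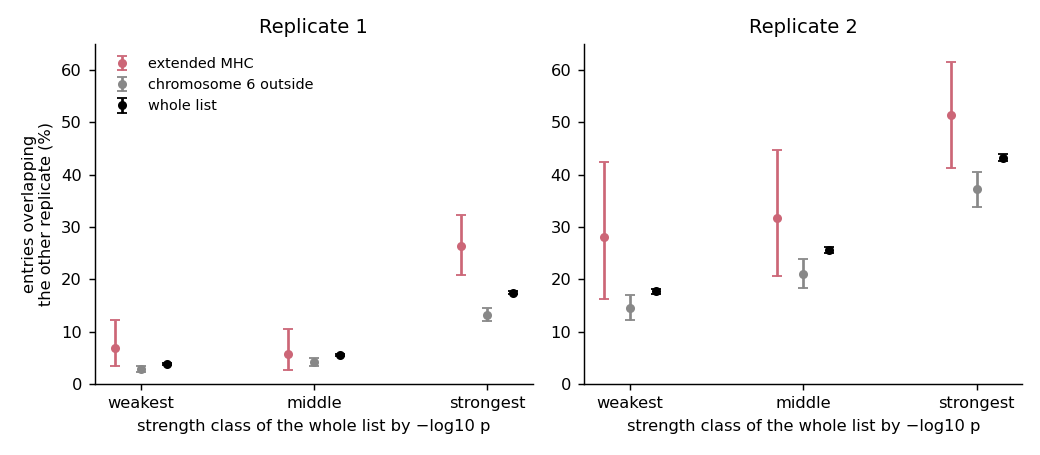
Percent of entries overlapping the other replicate in 3 strength classes of the whole list by −log10 p, for replicate 1 (left) and replicate 2 (right); points are shares and bars 95% exact binomial intervals for members of the extended MHC, for chromosome 6 outside it and for the whole list. The strongest class overlaps most in every set, with 26.3% and 51.5% of the members.

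The 52 shared pairs were closely aligned, about as closely as all pairs of the series. In the deposited list of pairs the overlap covers at least 50% of the replicate 1 peak, which by itself brings narrow peaks together, and by the 1-base rule the region held 88 pairs. The distance between midpoints had a median of 4.25 bases, beside 4 over all pairs of the series. It was at most 10 in 39 pairs (75%, beside 74.5% of all pairs). In 3 pairs the start and the end were the same in both lists, beside 886 of 13758 in the series. The median fold was 3.98 in replicate 1 and 3.88 in replicate 2, against 4.11 and 4.23 over all pairs of the series. Folds differed by at most a factor of 2 in 49 of 52 pairs (94.2%, beside 90.5% of all pairs), and the replicate 2 fold was the higher in 30 (57.7%, beside 53.3%). Both folds exceeded 5 in 6 pairs (11.5%, beside 13.9%). On the log2 scale the ratio of replicate 2 to replicate 1 had a median of 0.08 and an SD of 0.50, against an SD of 0.61 over all pairs. Across the 52 pairs the Spearman correlation of the folds was 0.59, and 0.57 without the strongest pair, beside 0.32 over all pairs of the series. By class it was 0.15 in class I (11 pairs), 0.62 in class III (29) and 0.59 in class II with the extended end (12). It is a description across peaks of the same 2 libraries, which are not independent replicates.

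**Figure D4:**
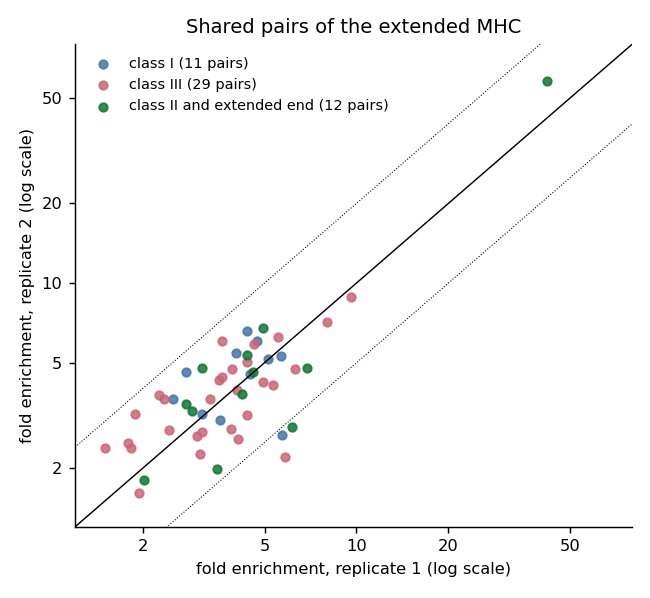
Fold enrichment of the 52 shared pairs in replicate 1 (horizontal, log scale) and replicate 2 (vertical, log scale), coloured by class; the solid line marks equal folds and the dotted lines a factor of 2. A class II and extended end pair at 42.1 and 57.7 stands far from the others, and 49 of the 52 pairs lie within the dotted lines.

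The strongest member by far lay in the extended end on the plus strand, at chr6:33258165-33258195 in replicate 1, with the replicate 2 peak 1 base longer at each end. Its fold was 57.7 in replicate 2 and 42.1 in replicate 1, and its −log10 p was 379.1 and 215.6. It held rank 1 by fold and rank 3 by −log10 p in the whole replicate 2 list, and ranks 5 and 24 in the whole replicate 1 list. The peak is narrow, 33 and 31 bases, with the same midpoint in both lists. The next highest fold of any member was 9.58 in replicate 1 and 8.87 in replicate 2, so this position exceeded every other in the region several times over in both replicates. No other plus-strand member lay near it: the next plus-strand peaks before it were at chr6:33241872-33241901 in replicate 1 (4.95-fold) and chr6:33241870-33241901 in replicate 2 (6.78-fold), themselves a shared pair with midpoints 1 base apart. In this 100-kb window, chr6:33200001-33300000, the plus strand held only 4 entries in each list. The position thus differs from the dense stretches described next, where many moderate peaks lie side by side. Whether the input shows a like pile of fragments at this position was not analysed here.

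The densest window by shared pairs was chr6:31500001-31600000 on the minus strand, at the start of class III, with 7 pairs spread over 7.63 kb. Here 12 of 13 replicate 2 entries overlapped replicate 1, and 10 of 17 replicate 1 entries overlapped replicate 2. The window was chosen by its shared pairs, a choice that can be expected to raise these shares, as in the windows described next. Overlap in equally rich windows of the series was not counted. The folds of the pairs were mostly low, with medians of 1.94 in replicate 1 and 2.38 in replicate 2, while −log10 p was often high. Single entries reached 6.12-fold in replicate 1 and 7.21-fold in replicate 2. The former, chr6:31509463-31509495 (−log10 p 20.1), was unmatched, 1060 bases from the nearest replicate 2 peak. The pair at chr6:31500771-31500813 had a fold of 5.85 and a −log10 p of 55.2 in replicate 1, and 2.21 and 12.3 in replicate 2, making it one of the 3 pairs whose folds differed by more than a factor of 2. A wide replicate 1 peak of 162 bases at chr6:31500887-31501048 (4.002-fold, −log10 p 40.6) covered 2 replicate 2 peaks, chr6:31500886-31500917 (2.83-fold) and chr6:31500965-31501039 (3.26-fold, −log10 p 24.8). The widest replicate 1 member, 268 bases at chr6:31502153-31502420 (2.83-fold), was likewise met by 3 separate replicate 2 peaks, of 2.81-fold, 7.21-fold and 4.98-fold. The middle one of these, chr6:31502262-31502296, had the second highest −log10 p of the replicate 2 members, 39.6. In the opposite sense, the widest replicate 2 member, 166 bases at chr6:31501564-31501729 (2.38-fold), joined 2 replicate 1 peaks of 1.501-fold and 1.83-fold. Wide peaks of 1 list against several of the other meet the 1-base rule but often not the 50% rule, which leaves the count of deposited pairs here below the count of overlapping entries. The most distant pair, chr6:31508329-31508399, had folds of 1.89 in replicate 1 and 3.21 in replicate 2. A strong replicate 1 peak between this pair and the rest, chr6:31504143-31504177, had a −log10 p of 35.6 at a fold of only 1.98, and the nearest replicate 2 peak was 1054 bases away.

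The second window, chr6:31700001-31800000 on the plus strand of class III, also held 7 pairs, over 15.4 kb, with 28 replicate 1 and 10 replicate 2 entries. Of the replicate 2 entries, 8 overlapped. The centre of this stretch was the pair at chr6:31723449-31723481, with folds of 9.58 in replicate 1 and 8.87 in replicate 2, −log10 p of 46.2 and 24.96, and midpoints 1.5 bases apart, the second highest pair of the region by its lower fold. Within 2 kb before it lay pairs at chr6:31721817-31721846 (3.92 and 4.73, replicate 1 first), chr6:31722467-31722496 (3.62 and 6.05, the same 30 bases in both lists) and chr6:31722863-31722895 (6.31 and 4.73). After it followed pairs at chr6:31724723-31724786 (3.33 and 3.63) and chr6:31725304-31725359 (1.78 and 2.49). The remaining pair, chr6:31709945-31710000, lay well before the others and had 4.08 and 2.57. The central pair was the highest of the 7 in both lists. The replicate 1 list went on beyond the shared pairs, with 20 entries that no replicate 2 peak overlapped. The strongest of these, chr6:31723593-31723626, had a fold of 6.45 and a −log10 p of 24.1 and lay 110 bases from the nearest replicate 2 peak.

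The third window, chr6:32900001-33000000 on the plus strand, held 6 of the 12 pairs of class II with the extended end within 6.96 kb. Both lists placed 16 entries there, and 11 of each overlapped the other. The strongest pair was chr6:32941508-32941619, with folds of 6.88 in replicate 1 and 4.77 in replicate 2. The next, chr6:32941790-32941830, had 6.15 and 2.85 and was another of the 3 pairs beyond a factor of 2, although its peaks began at the same base in both lists. The pair at chr6:32941901-32941963 had 4.22 and 3.81, and that at chr6:32944120-32944176 had 2.89 and 3.28. Further pairs at chr6:32947255-32947313 (2.02 and 1.79) and chr6:32948435-32948464 (3.496 and 1.99) followed. The second widest replicate 1 member also lay here, 168 bases at chr6:32941221-32941388 (3.90-fold), and met a replicate 2 peak of 38 bases (4.02-fold). Replicate 1 folds were above replicate 2 folds in all but 1 of these 6 pairs. Before this window, shared pairs were missing back to 32137043. Windows this rich are not rare in the series, since 553 of 5259 windows with a shared pair (10.52%) held at least 6. In the region they were 3 of 23, and together they held 20 of its 52 pairs (38.5%).

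**Figure D5:**
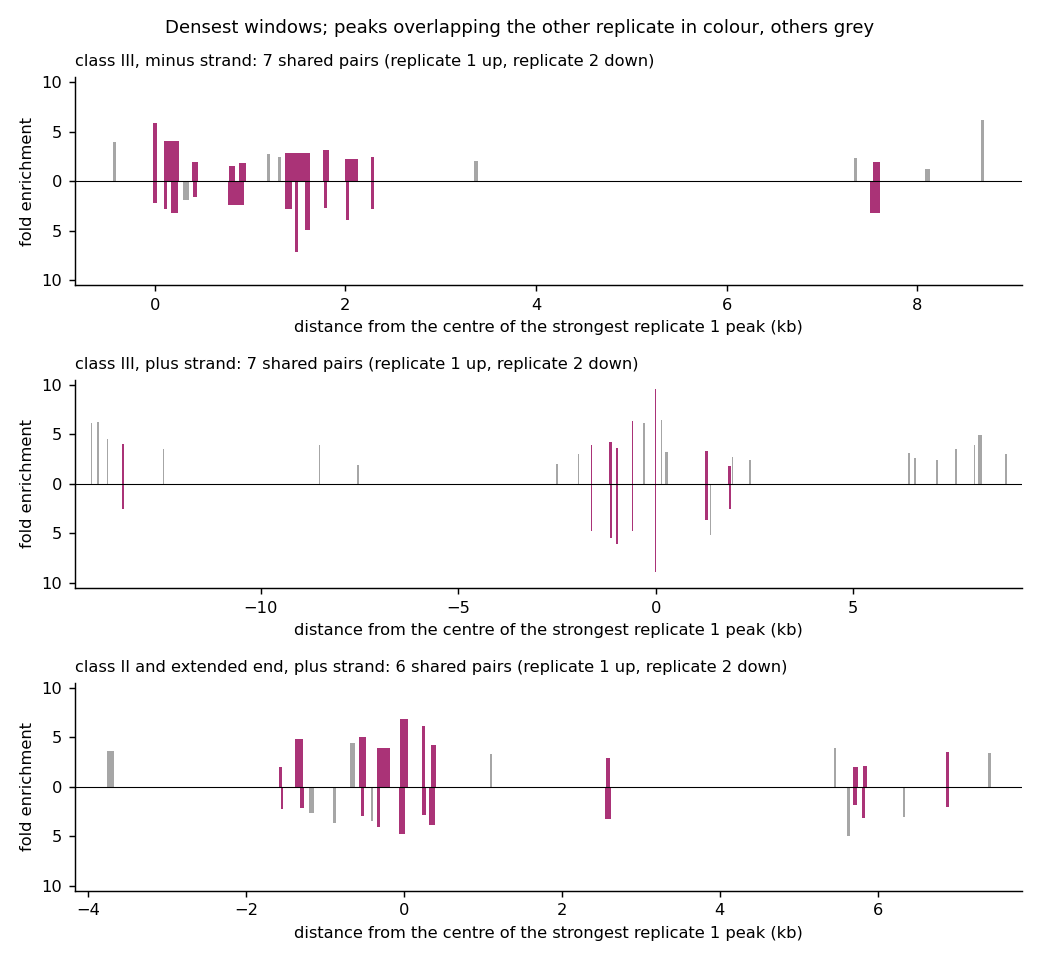
Fold enrichment of every peak on the named strand in the 3 windows with the most shared pairs, replicate 1 upward and replicate 2 downward, against distance in kb from the centre of the strongest replicate 1 peak; peaks overlapping the other replicate are coloured and the others grey. The top window (minus strand) and the bottom window are mostly coloured, with 12 of 13 and 11 of 16 replicate 2 entries overlapping, while the middle one holds many grey replicate 1 peaks. The windows were chosen by their shared pairs, which can be expected to raise the coloured part.

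The 20 pairs with the highest lower fold comprised 6 in class I, 9 in class III and 5 in class II with the extended end. In class I all 6 lay on the minus strand. The pair at chr6:29596320-29596420, 101 bases wide in replicate 1 and 72 in replicate 2, had folds of 5.66 and 5.32 and led the class. At chr6:30578764-30578796 the folds were nearly equal, 5.143 and 5.145. A further pair on the same strand, chr6:30584433-30584531, had folds of 4.49 and 4.55 and the highest −log10 p of any class I pair, 24.8 in replicate 1 and 22.7 in replicate 2. The pairs at chr6:28884728-28884757 (4.71 and 6.03) and chr6:28885028-28885058 (4.39 and 6.60) lay 270 bases apart, and that at chr6:30262957-30262990 had 4.03 and 5.45. In these last 3 pairs the replicate 2 fold was the higher. The only class I pair on the plus strand, chr6:31026770-31026799, had 3.12 and 3.21.

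In class III outside the 3 windows, the highest pair was chr6:32083883-32083993 on the minus strand, with folds of 7.98 and 7.10 and wide peaks of 111 and 106 bases that began at the same base. It was followed by chr6:31611160-31611206 on the minus strand (5.52 and 6.23). A pair of neighbours on the plus strand, chr6:31867054-31867093 (5.34 and 4.13) and chr6:31867133-31867241 (4.61 and 5.86, with widths of 109 and 118 bases), stood 39 bases apart and changed order between the lists, the first being the higher in replicate 1 and the second in replicate 2. The pair at chr6:31599777-31599874 had 4.37 and 5.05 and lay in a run of 5 plus-strand pairs from 31597215 to 31604188, whose folds ran between 2.26 and 5.05 over both lists. The pair at chr6:31853280-31853311 had 4.96 and 4.23, and that at chr6:32136802-32136853, first of 3 minus-strand pairs within 241 bases, 4.08 and 3.94. In the extended end the pairs at chr6:33169568-33169638 (4.37 and 5.35) and chr6:33373008-33373083 (4.58 and 4.603), both on the plus strand, were the only shared pairs of their strand and 100-kb window. The remaining 32 pairs had folds of 1.501 to 6.15 in replicate 1 and 1.61 to 6.05 in replicate 2.

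The strongest members by −log10 p were mostly found by both replicates. Overlap also rose with strength in the whole lists, to 17.4% of replicate 1 and 43.2% of replicate 2 entries in the strongest class. The overlap of whole-list peaks as strong as the members named next was not counted, so their counts cannot be called particular to the region. Of the 10 strongest replicate 1 members 7 overlapped replicate 2, and of the 10 strongest replicate 2 members 9 overlapped replicate 1. Class III held 5 and 7 of these 10. The replicate 1 members without a counterpart were chr6:31504143-31504177 and chr6:31723593-31723626, both described above, and chr6:32948964-32948997 (3.42-fold, −log10 p 23.1), 498 bases from the nearest replicate 2 peak. The replicate 2 member without one was chr6:31803764-31803793 on the plus strand, with a fold of 6.88 and a −log10 p of 29.7, 207 bases from the nearest replicate 1 peak. Close by, chr6:31804061-31804095 (4.90-fold) did overlap, sharing a wide replicate 1 peak (4.18-fold) with a further replicate 2 peak of 4.18-fold. On the plus strand of class I, chr6:30691593-30691625 had a fold of 5.24 and a −log10 p of 25.6 in replicate 2 and overlapped an 81-base replicate 1 peak of 3.88-fold, too wide for the 50% rule.

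Unmatched members of replicate 2 mostly lay near a replicate 1 peak, and those of replicate 1 mostly did not lie near a replicate 2 peak. Of the 128 unmatched replicate 2 members, 90 (70.3%) had a replicate 1 peak within 1000 bases on the same strand and 34 (26.6%) within 100 bases, beside 56.3% and 12.1% of all unmatched peaks of the list and 47.5% and 9.53% of those on chromosome 6 outside. The median gap was 441.5 bases, against 782 over the list. Of the 460 unmatched replicate 1 members, 145 (31.5%) had a replicate 2 peak within 1000 bases and 34 (7.39%) within 100 bases, beside 23.7% and 3.74% of all unmatched peaks of the list and 16.4% and 2.71% of those on chromosome 6 outside. The median gap was 2443.5 bases, against 4520 over the list. The replicate 1 list is the longer, so its peaks are nearer to any position. Unmatched members were weaker than matched ones, with a median −log10 p of 4.20 against 7.79 in replicate 1 and 4.75 against 6.64 in replicate 2. They were stronger than all unmatched peaks of the lists, whose medians were 3.68 in replicate 1 and 3.94 in replicate 2. The medians of all matched peaks were not computed. The most common single result in replicate 1, a 30-base peak of 3.12-fold and −log10 p 3.68, accounted for 37 members (6.84%) and 10.6% of the whole list. Of these 37 members, 2 overlapped replicate 2, and the overlap of such peaks in the whole list was not counted. Their −log10 p lies in the middle strength class, where 5.48% of all replicate 1 entries overlapped, so the count cannot be called low.

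Some peaks were listed on both strands, 12 of 529 distinct peaks in replicate 1 (2.27%, beside 1.84% of the whole list) and 4 of 210 in replicate 2 (1.90%, beside 1.66%). Each carried the same fold on both strands, and none of these entries overlapped the other replicate. The entries are few, and the overlap of such peaks in the whole lists was not counted, so whether this is particular to the region cannot be told. Of the 12 in replicate 1, 7 lay in class III. At the borders of the region folds were moderate on both sides. The first replicate 1 peak inside the region, chr6:28477961-28477990, had a fold of 2.34, and the last before it, chr6:28410931-28410971, had 2.62. At the other end the last inside, chr6:33424837-33424877, had 2.45 and the first beyond, chr6:33543503-33543532, had 2.34. In replicate 2 the corresponding folds were 3.56 inside and 3.82 outside at the start, and 5.19 inside and 3.21 outside at the end.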

How the data were processed

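The 2 peak lists of WT CLIP RNA and the deposited list of overlapping pairs were used. The submitters' processing notes name, with no role or order, MACS2 (2.1.1.20160309), Novoalign (3.09.00), deepTools (3.2.1), HOMER (4.11.1), bedtools (2.25.0) and hg19. Not given in the sources used here are the treatment of reads that map to several places and the caller's control. The peak names carry a p threshold of 0.005, not adjusted for the positions tested. The authors deposited for each peak a score (about 10 times the −log10 p, not used further), a fold enrichment (a ratio) and a −log10 p. The 8 columns of the authors' count table match no sample label and were not used, so the planned count test was not run.

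Rows that repeat a peak on the same strand were counted once. Positions count from 1. The lists name no alternate haplotype sequence. Members were taken by midpoint, and overlap meant 1 shared base on the same strand; the deposited pairs equalled the pairs covering at least 50% of the replicate 1 peak. Shares carry 95% exact Clopper-Pearson intervals. Named peaks were the 20 pairs with the highest lower fold, the 10 strongest and 3 widest members of each list, the 3 windows of 100 kb richest in pairs and the strong plus-strand peak of the extended end; others were chosen after their values were seen. Region, classes and rules were chosen with earlier results of these data known. Overlap counting was tested on simulated lists. Alternatives were other overlap rules, stricter lists, whole-peak membership, uncollapsed rows and single replicates. Scripts used scipy 1.17.1, pandas 2.3.3, numpy 2.4.6 and matplotlib 3.10.9 under Python 3.11.15.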

Additional observations from a re-analysis of the deposited data

How the results depend on the processing

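The share of replicate 2 members overlapping replicate 1, 40.2%, was 21.96% under a rule of 50% of both peaks and 23.8% under one of 50% of the replicate 1 peak. It was 31.8% when replicate 1 was cut to its strongest entries, as many as in replicate 2. Fewer pairs can qualify under each of these. The whole-list share under that cut was not counted, so 31.8% has no list value to be set beside. With 50% of both peaks it was 10.1% in class I, 31.0% in class III and 28.9% in class II with the extended end. With 50% of the replicate 1 peak it was 12.4%, 32.2% and 31.6% in the same order. Pairs numbered 88 by the 1-base rule, 47 where each peak was covered by 50% and 52 where the replicate 1 peak was. Class I held 40.6% and class III 39.3% of members, as means of both lists; with rows as deposited they held 36.4% and 44.4%, and in the stronger 50% of each list 38.5% and 42.8%. With a single list the shares ran from 39.6% to 41.6% in class I, 37.9% to 40.7% in class III and 17.8% to 22.6% in class II with the extended end. Ignoring strand, run on the replicate 2 overlap shares and the number of pairs, gave the same values, as did requiring whole peaks inside the class, run on the class shares. Leaving out a window of each class, the one with the most pairs or the one with the most entries, was added after seeing the data. The plus-strand share of class II with the extended end was 54.5% in replicate 2 without the first and 46.7% in replicate 1 without the second, and that of class III was 42.9% in replicate 1 without the second. No paired analysis was possible because the results come from no test and the count columns carry no sample labels. Depth is unknown, which limits what absence of a peak from the shorter list can show.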
